A study of Drosophila melanogaster with 6 samples.

Results

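The control of the series was the testis of flies that carried the bamGal4 driver alone, raised at 29 °C, and its transcriptome was measured in 2 of the 6 libraries. The libraries were chosen by genotype label only, and no measured value entered that choice. The other libraries came from testes in which the same driver was combined with a hairpin against Pcf11 (bamGal4>PCf11KD, VDRC 103710; gene counts of 1 library were used here) or against cbc (bamGal4>cbcKD, BL 77426; 2 libraries). Every group carried bamGal4, which expresses the yeast activator Gal4 in late spermatogonia and early spermatocytes, so the controls were not driver-free, and they carried no hairpin. Parents were left to mate and lay at 25 °C over 3 days and were then removed, after which their offspring grew up at 29 °C. Each library was made from polyadenylated RNA of 150 pairs of whole testes, pooled from dissections of 50 pairs. Age at dissection was not given in the sources used here. The labels do not say whether the 2 control libraries came from separate cultures, so the spread between them may be technical.

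Control 1 had 76132580 and control 2 had 73600622 reads counted on the sense strand of a gene. Levels are given on 2 scales. CPM is the number of sense reads of a gene per 1000000 sense reads of its library, which grows with the length of the transcript. The per-length level is the number of reads per kilobase of merged exon, scaled so that all genes sum to 1000000. It is the scale for comparing levels of different genes. Where genes or lists are ranked or counted in CPM, the order is one of reads and depends in part on transcript length. A floor of 3 reads corresponded to 0.0394 CPM in control 1 and 0.0408 CPM in control 2. A gene at 100 CPM rested on 7613 reads in control 1 and on 7360 reads in control 2. Reads that fell on several genes of the same strand were counted for none of them. A count at or near 0 therefore does not show that a gene was silent. In whole testes, fewer cells of a type and less RNA per cell cannot be told apart.

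The fly testis is a coiled tube in which germ cells mature in order. Stem cells at the tip, anchored to a small group of somatic hub cells, give rise to spermatogonia, which divide inside an envelope of somatic cyst cells and then become primary spermatocytes. Spermatocytes grow for a long time and transcribe most of the genes used later, under meiotic arrest genes. Some of these act as testis-specific forms of general transcription machinery. After meiosis little is transcribed. Spermatids elongate on stored messages, build a long flagellum with giant mitochondrial derivatives, and replace their histones with protamine-like proteins. The gland and duct that open into the genital tract beside the testis make seminal proteins and are not part of the organ.

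The labelled tissue was checked against 6 markers, and all were present in both libraries. The spermatid gene Mst87F (chromosome 3R from 13827151 to 13828008, minus strand, BDGP6), which encodes a cysteine-rich sperm tail protein, was at 2922 CPM in control 1 and 2792 CPM in control 2. The testis tubulin betaTub85D (3R from 9408383 to 9410282, minus strand), which forms the meiotic spindle and the axoneme, was at 2796 and 2971 CPM in the same order. The boule gene bol (3L from 9097629 to 9134405, minus strand), an RNA-binding regulator of meiotic entry, had 764 CPM in control 1 and 694 CPM in control 2. The meiotic arrest genes were lower in reads. The gene aly, a subunit of the testis meiotic arrest complex, had 38.8 CPM in control 1 and 44.8 CPM in control 2, and can, a testis relative of the general factor Taf5, had 32.6 and 34.4 CPM. The germline helicase gene vas, active from stem cells onward, had 18.2 CPM in control 1 and 20.7 CPM in control 2. On the per-length scale the order was Mst87F at 6346 ± 179, betaTub85D at 2168 ± 102, bol at 123 ± 7.91, aly at 25.5 ± 2.68, can at 15.7 ± 0.677 and vas at 11.8 ± 1.12 (SD, n = 2 each), and no neighbours in this order overlapped between libraries.

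Of 17807 gene identifiers, 11297 (63.4%) were at or above 1 CPM in both controls. Levels of at least 10 CPM in both were reached by 7691 genes, of at least 100 CPM by 2088 and of at least 1000 CPM by 89, while 1951 genes had no read in either library. The median over the 11297 genes was 23.8 CPM, or a per-length level of 16.0. Reads were spread over many genes. The 20 highest genes took 11.5% of sense reads in control 1 and 10.3% in control 2, the 100 highest took 24.7% and 22.9%, and 595 genes in control 1 and 654 in control 2 made up 50% of all sense reads. Among the top 20 by mean CPM, 19 were in the top 20 of both libraries.

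The gene with the most reads on average and in control 1 was mt:lrRNA, the large ribosomal RNA of the mitochondrial genome, which carries a poly(A) tail in flies. It had 22782 CPM in control 1 and 10743 CPM in control 2. The highest nuclear gene was CG18628 (3L from 10639740 to 10640136, plus strand), a short gene of 334 exonic bases, with 11752 CPM in control 1 and 14513 CPM in control 2, where it was above mt:lrRNA. Per length it ranked first of all genes, at 48550 in control 1 and 60299 in control 2. CG4836 (3R from 20013872 to 20018248, plus strand) followed in reads with 10069 and 9766 CPM in the same order. Its 4089 exonic bases put it lower per length, at 3356 ± 59.0 (SD, n = 2), rank 26.

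Sperm proteins and genes known only by number shared the top ranks. The sperm leucylaminopeptidase genes S-Lap7 (2R from 13778124 to 13780245, minus strand) and S-Lap1 (3L from 8617235 to 8619474, plus strand) encode abundant proteins of the sperm tail's mitochondrial derivative. S-Lap7 had 6340 CPM in control 1 and 6244 CPM in control 2, and S-Lap1 had 5395 and 5197 CPM. CG10252 (3R from 23695221 to 23696245, minus strand) was at 5805 and 5758 CPM, and CG31740 (2L from 18008953 to 18009694, plus strand) at 5724 CPM in control 1 and 4595 CPM in control 2. Also in the top 20 were Jhbp5, a member of a juvenile hormone binding protein family, at 4474 and 4529 CPM, and GstS1, a glutathione S-transferase of the sigma class, at 4266 and 4427 CPM. The odorant-binding protein gene Obp44a had 3885 CPM in control 1 and 4177 CPM in control 2. The sperm tail gene Mst84Db had 3333 CPM in control 1 and 3214 CPM in control 2. Mst77F, which encodes a linker-histone-like protein of the sperm nucleus, had 3214 and 3296 CPM. Genes that most cells use were there too, among them alphaTub84B at 3090 and 3364 CPM and the polyubiquitin gene Ubi-p63E at 3177 and 3254 CPM. The remaining members were mt:CoI, CG12860, CG17377, CG31226, CG17376 and loopin-1, between 2776 and 4714 CPM in single libraries. Of the 20, 8 have no name beyond a CG number. Among all nuclear coding genes at or above 1 CPM the share was 39.9%, so this count does not set the top ranks apart.

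Ranking by length changed part of this list, and 12 genes were in both top 20s. CG31226 (3R from 18851305 to 18851798, minus strand) had a per-length level of 12980 in control 1 and 11871 in control 2, and Mst84Db (3R from 7365160 to 7365627, minus strand) had 11082 and 10746. Mst87F, Mst84Da and Mst84Dd, all of the same family of cysteine-rich sperm tail proteins, entered the list, with mean per-length levels of 6346, 4812 and 3970. MtnA, a metallothionein that binds copper and other metals, entered at 4457 in control 1 and 4605 in control 2, and so did CG34168, CG31820, CG46059 and CG15219. These last 4 lie on 2L and have between 440 and 596 exonic bases.

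**Figure D1:**
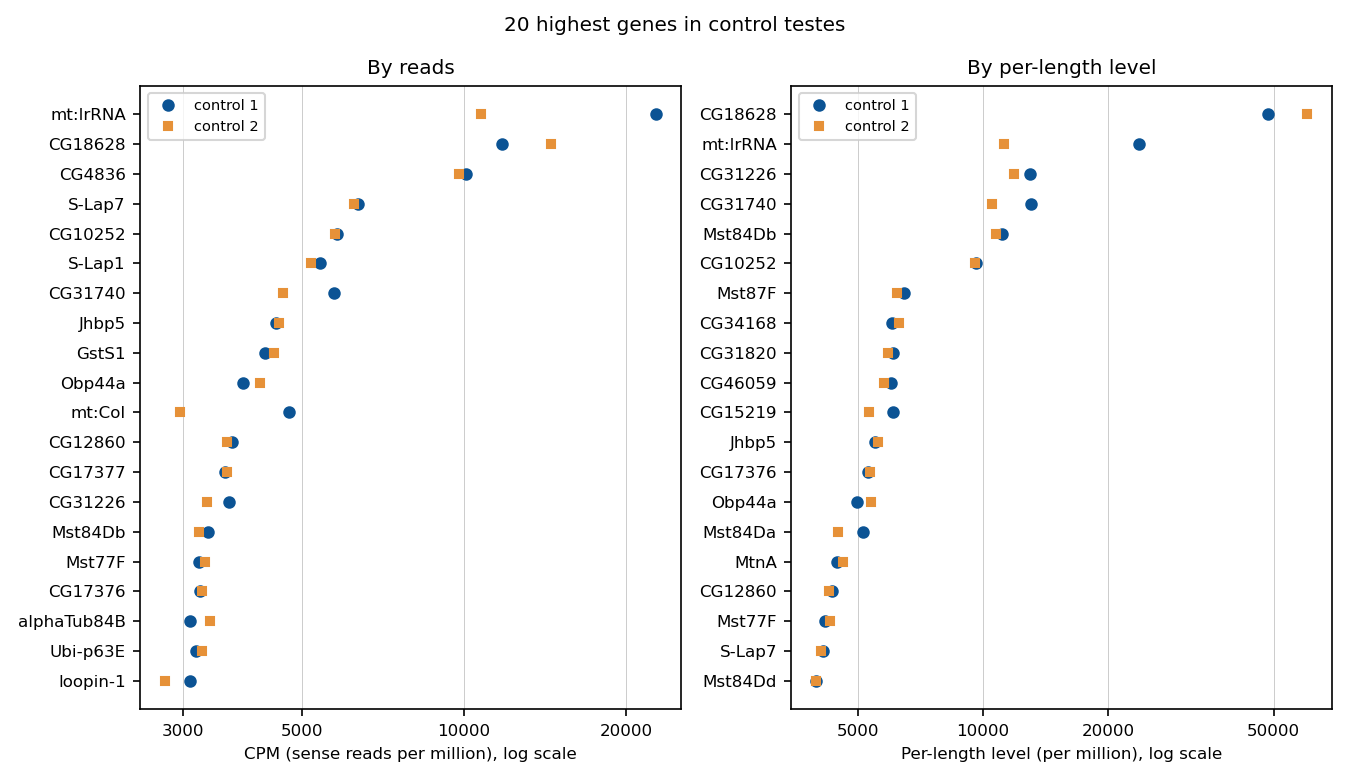
The 20 highest genes in the 2 control libraries by CPM (left) and by per-length level (right), on log axes, with a circle for control 1 and a square for control 2. The symbols lie close together for most genes, while mt:lrRNA was at 22782 CPM in control 1 and 10743 CPM in control 2.

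The most abundant messages came from short genes away from the X chromosome. Among nuclear coding genes at or above 1 CPM, the 100 highest by per-length level had a median of 885.5 exonic bases, against 1947.5 over all 10308. This scale divides by length, but the 100 highest by CPM, a scale that favours long genes, also had a shorter median of 1645. Genes under 1000 exonic bases made up 55 of the 100 highest per length and 29 of the 100 highest by CPM, against 18.5% of all. Genes with only 1 exon made up 28 and 19 of the 100, against 14.0%. Overlap with an exon of a gene on the opposite strand was found for 14% of the 100 highest per length and 19% of the 100 highest by CPM, against 31.3% of all. Of the 100 highest per length, 23 had a further member of the same 100 within 10000 bases, and of the 100 highest by CPM, 20 did. No such count was computed for other sets of 100 genes. Whether abundant genes lie closer together than others was therefore not tested.

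X-linked genes were about as often expressed as autosomal ones but at lower levels. Of X-linked coding genes, 77.2% reached 1 CPM in both controls, against 73.7% on the major autosome arms. Among those that did, the median per-length level was 12.5 on the X (1671 genes) and 18.3 on the autosomes (8548 genes), a ratio of 0.679 in control 1 and 0.685 in control 2. In CPM the medians were 21.9 on the X and 28.8 on the autosomes, a ratio of 0.759. At the top the gap was wider. At least 100 CPM was reached by 14.7% of the X-linked and 21.6% of the autosomal genes, and at least 1000 CPM by 2 X-linked genes, Act5C and CG1394, and 91 autosomal genes. The X held 3 of the 100 highest per length and 2 of the 100 highest by CPM, against 16.2% of all coding genes at this level. These are values across genes of the same libraries and were not tested.

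Of the gene lists ordered by stage, those of the sperm tail and of sperm leucylaminopeptidases had the highest median levels. Their counts were read against all 17807 genes, of which 63.4% were at or above 1 CPM in both controls and 12.0% had a mean of at least 100 CPM. Their per-length medians were read against the 16.0 of genes at or above 1 CPM in both controls. Early germ cell genes were present at low levels. The list of spermatogonia and germline stem cells had 10 measured members, all above 1 CPM in both controls and none at 100 CPM, with a median of 19.7 CPM and a per-length median of 9.46. The differentiation factor bgcn, which acts with bam and tut to end the divisions of spermatogonia, had 81.9 CPM in control 1 and 91.4 CPM in control 2. Its partner tut had 18.9 and 21.2 CPM in the same order. The bam gene itself, whose promoter gives the driver its name, had 6.36 CPM in control 1 and 8.57 CPM in control 2. Among genes of the piRNA pathway, which silences transposons, aub had 26.8 and 31 CPM, AGO3 had 24.5 and 19.6 CPM and piwi had 13.9 and 14.5 CPM. The mitotic phosphatase gene stg was lowest, at 1.18 CPM in control 1 and 1.20 CPM in control 2.

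All 13 measured spermatocyte transcription regulators were above 1 CPM in both controls, against 63.4% of all genes. Their median was 41.9 CPM and their per-length median 32.9. Only Rbp4, an RNA-binding protein of spermatocytes, had a mean of at least 100 CPM, with 91.6 CPM in control 1 and 110 CPM in control 2. The testis relatives of TAF subunits, which spermatocytes need to transcribe spermatid genes, ranged in mean per-length level from can at 15.7 to sa at 73.8, with nht at 39.5 and mia at 45.6. Subunits and partners of the testis meiotic arrest complex ranged in mean per-length level from comr at 11.7 to wuc at 77.6, with vis at 54.6. The zinc finger gene kmg, which keeps genes of other tissues off in spermatocytes, had 38.4 and 46.1 CPM. All 13 members were lower in control 1 than in control 2, where 69.3% of all genes with a mean of at least 1 CPM were lower in control 1. Their median ratio was 0.892, beside 0.946 over the 7826 genes with a mean of at least 10 CPM, so part of the shift was common to most genes.

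Regulators of the meiotic divisions were higher, with a median of 102 CPM and a per-length median of 46.6 over 9 measured members, 5 of them at 100 CPM or more. The gene fzr2, a germline activator of the anaphase promoting complex, had 229 CPM in control 1 and 236 CPM in control 2. The kinase gene polo had 176 and 188 CPM, and twe, the meiotic form of the phosphatase Cdc25, had 100 and 104 CPM. Per length twe stood at 59.3 and its mitotic counterpart stg at 0.537. The female meiosis gene cort had 1.87 CPM in control 1 and 2.62 CPM in control 2, and more of its reads lay on the antisense strand than on the sense strand.

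Genes of the sperm tail and of spermatid differentiation had a median of 1007 CPM and a per-length median of 1339, and 13 of 14 measured members had at least 100 CPM. Beside the Mst84D and Mst87F genes, the list was led per length by ocn, at 2822 in control 1 and 2399 in control 2, and Mst98Ca had 1396 CPM in control 1 and 1332 CPM in control 2. The gene dj, which encodes a protein of the sperm tail made from a stored message, had 1236 CPM in control 1 and 871 CPM in control 2, the largest ratio between libraries in the list, at 1.42. The mitofusin gene fzo, needed to fuse spermatid mitochondria, had 128 and 122 CPM. The exception was gdl, with 2.85 CPM in control 1 and 3.41 CPM in control 2.

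Genes of sperm chromatin had a median of 286 CPM and a per-length median of 517, and 7 of 8 had at least 100 CPM. Mst77F led them per length at 4230 ± 92.3 (SD, n = 2). The protamine genes ProtA and ProtB are close copies whose reads can be exchanged or lost. ProtA had 311 CPM in control 1 and 305 CPM in control 2, and ProtB had 262 and 264 CPM. The transition protein gene Tpl94D was lowest, at 32.3 CPM in control 1 and 33.6 CPM in control 2.

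The cup and comet genes are known for messages that gather at the ends of elongating spermatids and for transcription after meiosis. Their median was 234 CPM and their per-length median 234, and 11 of 17 measured members had at least 100 CPM. The highest was w-cup at 1826 CPM in control 1 and 1590 CPM in control 2. The gene soti, which encodes an inhibitor of a ubiquitin ligase that acts in sperm individualization, had 444 and 462 CPM. A single member, cola, had no counted read in either control, and whether its reads were lost to an overlapping gene was not tested.

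The 8 sperm leucylaminopeptidase genes, counted with loopin-1, were all above 100 CPM, with a median of 2191 CPM and a per-length median of 1455. Together they took 23194 CPM in control 1 and 22014 CPM in control 2, which is 2.32% and 2.20% of sense reads. S-Lap5 was lowest at 394 and 405 CPM. For scale, 10 housekeeping genes, which nearly all cells use, had a per-length median of 512, and all had at least 100 CPM.

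Y-linked fertility genes, which include dynein heavy chains of the axoneme and span giant introns, were low per length. Their per-length median was 4.50, below the 16.0 of genes at or above 1 CPM in both controls. In reads their median was 21.1 CPM, against 6.02 CPM over all genes counted, and none of 12 had 100 CPM on average. The highest in reads was kl-5, a dynein heavy chain gene, with 101 CPM in control 1 and 73.0 CPM in control 2. Per length the shorter genes FDY at 47.6 and ARY at 41.6 were higher than kl-5 at 8.78. Pp1-Y1, a phosphatase gene, was at 0.0131 CPM in control 1 and 0.0272 CPM in control 2, under the floor of 3 reads in both. The whole Y chromosome took 0.0447% of reads in control 1 and 0.0356% in control 2.

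**Figure D2:**
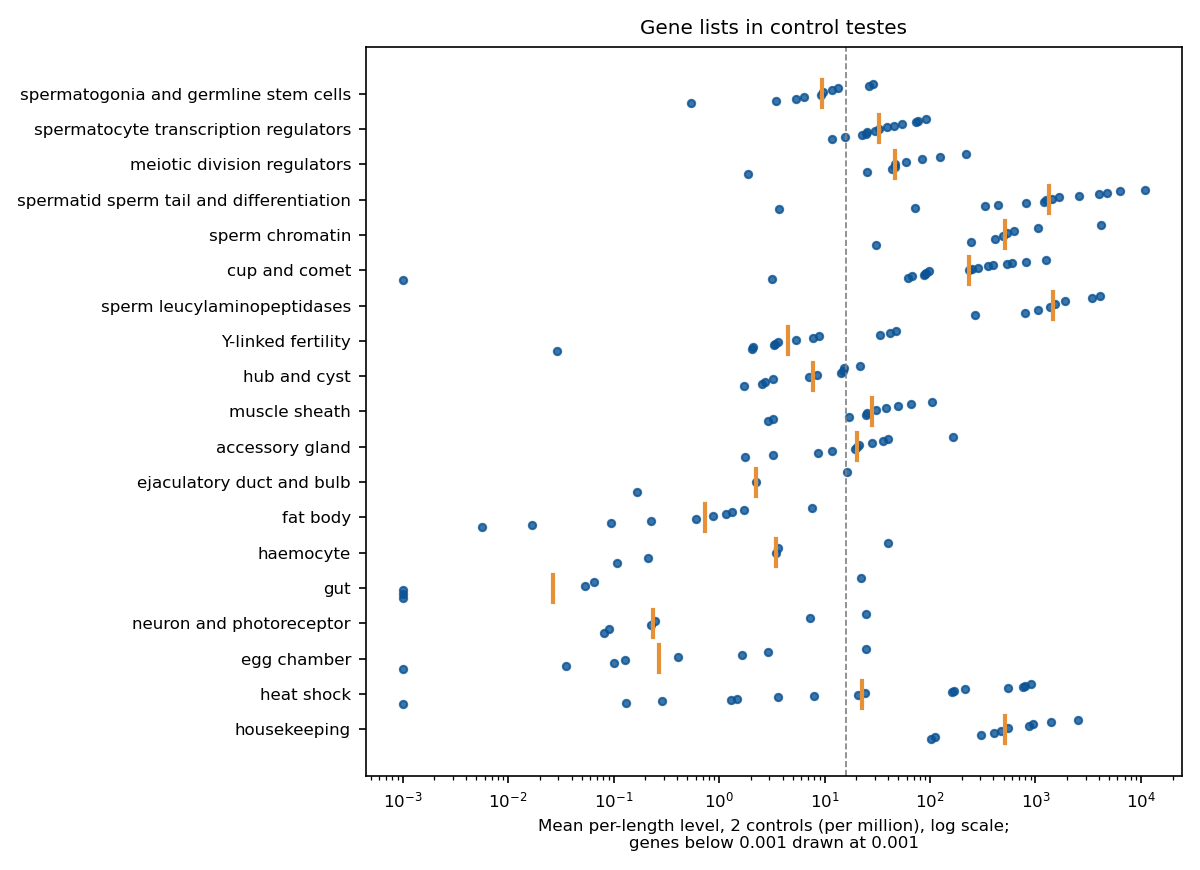
Mean per-length level of each gene (points) in 19 lists over the 2 controls, on a log axis, with an orange bar at the median of the list and a dashed line at the median of 16.0 over all genes at or above 1 CPM. Lists of the sperm tail (median 1339) and the leucylaminopeptidases (1455) lie at the right. Those of gut (0.0265), neuron and photoreceptor (0.239) and egg chamber (0.270) lie at the left.

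Many testis genes are copies of genes used throughout the body. In most of the pairs listed here, the copy known for its germline role was the higher. The pairs were chosen with earlier results of these data known, so their count does not extend to other pairs. Of 25 pairs listed, 23 were measured in both members, and the germline copy had the higher per-length level in 20. The median ratio of germline over broadly used copy was 3.07. The copies differ in exonic length, and on the CPM scale the germline copy was higher in 18 pairs, with nht below Taf4 and Ntf-2r below Ntf-2. The dynein light chain Cdlc2 had a per-length level of 503 in control 1 and 496 in control 2, and ctp had 54.3 and 57.6, a mean ratio of 8.94. This ratio rests on 736 exonic bases for Cdlc2 and 4645 for ctp, and their mean CPM was 266 and 188. The mitochondrial import gene tomboy40 was at 533 and 531, and Tom40 at 71.0 and 72.8, a mean ratio of 7.40. The cytochrome c gene Cyt-c-d, which serves sperm individualization, stood at 978 and 996, and Cyt-c-p, used in respiration elsewhere, at 150 and 161, a mean ratio of 6.33.

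Further pairs covered the cytoskeleton, translation, transcription and the proteasome. For tubulin, betaTub85D was at 2095 in control 1 and 2240 in control 2, and betaTub56D at 366 and 404, a mean ratio of 5.64. The cap-binding factor eIF4E3 was at 983 and 1040, and eIF4E1 at 185 and 207, a mean ratio of 5.16. The arrest gene aly stood 6.52 times above its relative mip130. The TAF pairs ranged from nht over Taf4 at 1.56 to sa over Taf8 at 3.40. Of the 5 proteasome pairs, the germline copy was higher in 4, from Rpt4R over Rpt4 at 1.61 to Rpt3R over Rpt3 at 4.18. The exception was Prosalpha3T, with 53.3 and 55.4 per length, and Prosalpha3 had 252 and 284. The broad copy was also higher for actin, with Arp53D at 175 and 179 and Act5C at 844 and 888, and for the nuclear transport GTPase, with Ran-like at 264 and 233 and Ran at 352 and 374. In these 3 pairs the mean ratio of germline over broad copy was 0.203, 0.205 and 0.687.

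**Figure D3:**
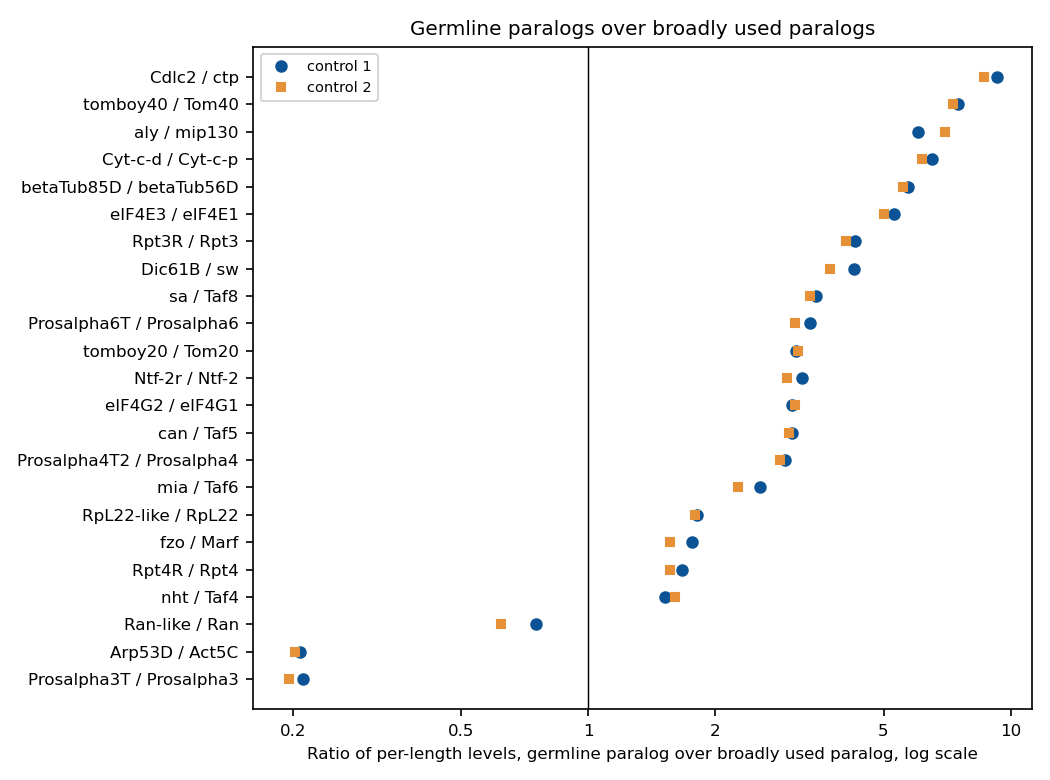
Ratio of per-length levels, germline copy over broadly used copy, for 23 pairs in control 1 (circles) and control 2 (squares) on a log axis, with a line at equal levels. The libraries give nearly the same ratio in each pair, and 20 pairs lie to the right of the line.

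Of the somatic lists of the testis, hub and cyst genes were low and muscle sheath genes were not. All 10 hub and cyst genes were above 1 CPM in both controls, against 63.4% of all genes. Their median was 18.8 CPM and their per-length median 7.81. The hub gene upd1, the ligand that maintains stem cells, had 15.8 CPM in control 1 and 16.7 CPM in control 2. Fas3, an adhesion protein that marks the hub, had 68.2 and 68.5 CPM. The transcription factor genes eya and so serve later cyst cells, and tj serves early ones. Of these, eya had 54.8 CPM in control 1 and 61.2 CPM in control 2, so had 30.6 and 30.3 CPM, and tj had 4.56 and 4.16 CPM. These genes also act in other cells, so their levels do not isolate the hub or the cyst. The muscle sheath list was higher, with a median of 89.8 CPM and a per-length median of 28.1. Of its 10 members, 5 were at 100 CPM or more, against 12.0% of all genes, and Act57B led the list per length at 104. Mhc, the muscle myosin heavy chain, had 156 CPM in control 1 and 174 CPM in control 2.

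Lists of neighbouring organs and other tissues were mixed, with members at or near 0 beside members well above 1 CPM. At least 1 CPM in both controls was reached by 10 of 11 accessory gland, 3 of 5 haemocyte, 5 of 10 fat body, 3 of 6 neuron and photoreceptor, 4 of 8 egg chamber, 1 of 6 gut and 1 of 3 ejaculatory duct genes, against 63.4% of all genes. Of 6 gut genes, the trypsins alphaTry and betaTry and the protease Jon99Ci had no read in either control, and Jon25Bi and Jon65Aiii were under 0.1 CPM, while LManII, a lysosomal mannosidase, had 56.3 and 60.1 CPM. Of 8 egg chamber genes, the chorion gene Cp36 had no read and osk and bcd were under 1 CPM, while the chorion gene Cp15 had 9.47 CPM in control 1 and 8.94 CPM in control 2. Of 10 fat body genes, the yolk protein genes Yp1 and Yp2 had no read in control 2 and at most 3 reads in control 1, while apolpp, a lipid carrier, had 68.4 and 60.4 CPM. Of 6 neuron and photoreceptor genes, the rhodopsin gene ninaE and Arr2 were near 0.1 CPM, while the arrestin gene Arr1 had 45.0 and 44.3 CPM. The synaptic vesicle gene nSyb had 21.3 CPM in control 1 and 21.7 CPM in control 2, and the neuronal RNA-binding gene elav had 1.84 and 2.01 CPM. Among haemocyte genes NimC1 and He were under 1 CPM. Hml had 25.6 CPM in control 1 and 35.7 CPM in control 2, srp had 13.5 and 15.6 CPM, and Pxn, a peroxidase of the extracellular matrix, had 154 and 187 CPM. The ejaculatory duct gene Est-6 had 23.8 and 19.2 CPM, while Dup99B and Obp56g were under 1 CPM. Accessory gland genes were detected in both libraries and at unequal levels between them.

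The progeny had been kept at 29 °C, and levels differed widely within the heat shock list. Of 16 heat shock list members, 7 had a mean of at least 100 CPM, against 12.0% of all genes, and the list's per-length median was 22.5. The constitutive chaperones Hsp83 and Hsc70-4 had per-length levels of 900 and 770 on average. The small heat shock genes Hsp26 and Hsp23, which are also used in the germ line without heat, stood at 790 and 545. The 6 copies of the strictly inducible Hsp70 gene were between 0.130 and 7.90 per length, with Hsp70Aa highest at 11.3 CPM in control 1 and 15.9 CPM in control 2. These copies are near-identical and only uniquely mapped reads were counted, so their levels are uncertain. Hsp68 had 248 and 298 CPM and a mean per-length level of 169. Hsp22 had no counted read in either library, and whether its reads were lost to an overlapping gene was not tested. No library from another temperature was used, so no effect of 29 °C can be read from these values.

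Noncoding genes other than mt:lrRNA held few reads. Genes named as lncRNAs took 1.20% of sense reads in control 1 and 1.07% in control 2. After mt:lrRNA the highest in reads were lncRNA:CR9284 (2R from 21803402 to 21804338, plus strand), with 1155 and 1006 CPM, and lncRNA:CR32652 (X from 12411018 to 12412181, minus strand), with 1192 CPM in control 1 and 946 CPM in control 2. Of the 10 highest noncoding genes, 5 were lncRNAs on the X, and the X share of all noncoding genes was not computed for comparison. Of these 5 lncRNAs, lncRNA:CR32658 had 787 and 589 CPM and lncRNA:CR32661 had 540 and 451 CPM. Lower on the X were lncRNA:CR32657 with 398 and 324 CPM and lncRNA:CR42657 with 289 and 239 CPM. Of the 10 highest noncoding genes only hpRNA:CR18854 was not higher in control 1, while 30.7% of all genes with a mean of at least 1 CPM were. CR32657 and CR32658 are neighbours, from 12087211 to 12087695 and from 12091264 to 12092272 on the plus strand. The hairpin RNA gene hpRNA:CR18854, a source of endogenous siRNAs, had 251 CPM in control 1 and 267 CPM in control 2.

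The 2 controls lay close to each other for most genes and far apart for a few. Across genes the chi-square per degree of freedom was 53.5, so they differed beyond counting error and were not 1 library deposited again. Of 7826 genes with a mean of at least 10 CPM, 7618 (97.3%) lay within 1.25-fold of each other, with a median ratio of control 1 over control 2 of 0.946. A ratio of at least 2 was found for 4 genes (0.0511%) and of at most 0.5 for 20 genes (0.256%).

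All 4 genes at least 2-fold higher in control 1 were mitochondrial. They were mt:ND6 at 16.1 CPM in control 1 and 5.38 CPM in control 2, mt:ND2 at 18.0 and 7.79 CPM, mt:lrRNA, given above, and mt:ND1 at 243 and 118 CPM. All 14 mitochondrial genes above 1 CPM were higher in control 1, by 1.23 to 3.00 times with a median of 1.79, while 30.7% of all genes with a mean of at least 1 CPM were higher in control 1. Mitochondrial genes took 3.46% of sense reads in control 1 and 1.79% in control 2, and mt:lrRNA alone made up 65.8% and 60.0% of that. The mitochondrial share was also uneven among the knockdown libraries, at 1.39%, 3.12% and 3.54%.

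The 20 genes at least 2-fold lower in control 1 included 4 of the list of the accessory gland, the organ that makes most seminal proteins, namely Acp76A, Acp26Aa, Acp53Ea and Acp36DE. CG9029 had the widest gap, at 1.67 CPM in control 1 and 23.8 CPM in control 2, a ratio of control 1 over control 2 of 0.0702 (95% interval 0.0582 to 0.0841, from counting error only). Mst57Db, a male-specific transcript of the accessory gland, had 3.76 CPM in control 1 and 20.4 CPM in control 2. Acp76A had 3.93 CPM in control 1 and 16.5 CPM in control 2, Acp26Aa had 6.59 and 22.9 CPM and Acp36DE had 38.5 and 113 CPM. The serpin gene Spn38F had 9.12 CPM in control 1 and 40.0 CPM in control 2, and Spn28F had 16.7 and 55.2 CPM. Cyp4g1, an enzyme of hydrocarbon synthesis in oenocytes, had 12.8 CPM in control 1 and 34.2 CPM in control 2.

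In the accessory gland list all 10 members with a mean of at least 1 CPM were lower in control 1, 8 of them at least 2-fold. Of all 11453 genes with such a mean, 69.3% were lower in control 1, and 93 differed at least 2-fold in either direction. The list summed to 89.4 CPM in control 1 and to 241 CPM in control 2, or 0.00894% and 0.0241% of sense reads. The best known member, the sex peptide gene SP, had 1.55 CPM in control 1 and 7.55 CPM in control 2. Acp98AB was lowest, at 0.144 and 0.299 CPM. The muscle sheath list did not move with it, with a median ratio of 0.942 of control 1 over control 2. Whether gland tissue was carried over at dissection was not tested.

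Y-linked fertility genes went the other way. Of 11 with a mean of at least 1 CPM, 10 were higher in control 1, against 30.7% of all such genes, with a median ratio of 1.41. CCY had 12.1 CPM in control 1 and 7.34 CPM in control 2, kl-3 had 43.9 and 28.6 CPM and kl-2 had 39.9 and 26.1 CPM. FDY was the exception, with 35.6 and 41.2 CPM. None of these reached 2-fold, and with 2 libraries the difference is between libraries, not conditions. Housekeeping genes were lower in control 1 in 10 of 10, against 69.3% of all such genes, with a median ratio of 0.920 beside 0.946 over the 7826 genes.

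**Figure D4:**
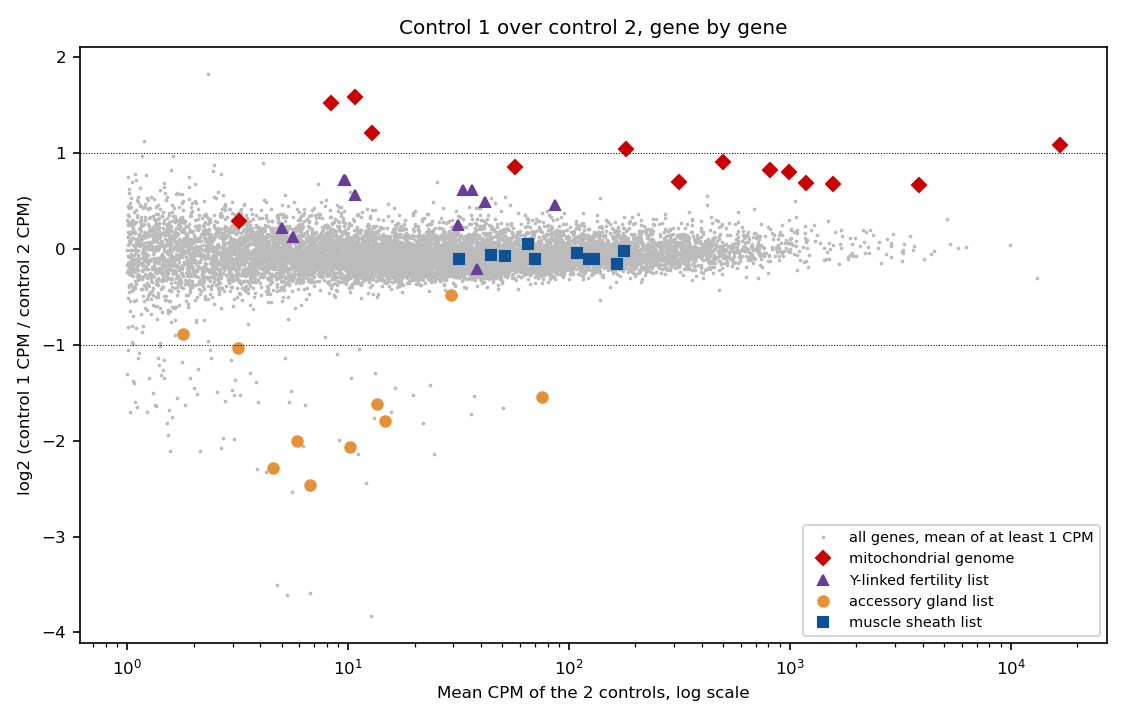
Log2 ratio of control 1 over control 2 for each gene (vertical) by mean CPM of both (horizontal, log axis), with dotted lines at 2-fold. Mitochondrial genes (red diamonds, 14 of 14) and most Y-linked fertility genes (purple triangles, 10 of 11) lie above 0, accessory gland genes (orange circles, 10 of 10) lie below 0, and muscle sheath genes (blue squares) lie with the bulk.

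The library kit preserved strand, and reads antisense to an annotated gene were few. They made up 3.10% of stranded reads in control 1 (2434543 reads) and 3.08% in control 2 (2340263 reads). A read that falls where genes on opposite strands overlap can be counted as sense for the gene on its strand and as antisense for the gene opposite. The 4570 genes whose exons overlap an exon on the opposite strand held 86.4% of the antisense reads in control 1 and 86.3% in control 2, with 23.2% and 24.0% of the sense reads. Their antisense share was 10.6% in control 1 and 10.2% in control 2, against 0.544% and 0.553% in the 13140 genes without such overlap. Among genes with at least 1000 stranded reads the median share per gene was 2.20% and 1.99% with overlap, against 0.210% and 0.224% without.

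More antisense than sense reads were found in both controls for 800 of 11562 genes with at least 100 stranded reads (6.92%). Of these, 662 (82.8%) overlapped a gene on the opposite strand, against 33.3% of all 11562. They were 451 coding genes, 333 noncoding RNA genes, 12 pseudogenes, 2 genes of other types and 2 identifiers not found in the annotation, and 277 of the 395 genes named as antisense RNAs were among them. Together the 800 genes held 68.4% of all antisense reads in control 1 and 68.5% in control 2.

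The clearest case was a pair on 3R. MstProx (from 7365939 to 7369305, minus strand), a gene of the Toll receptor family, had 101420 antisense and 181 sense reads in control 1 and 85261 antisense and 167 sense reads in control 2, an antisense share of 99.8% in both. The sperm tail gene Mst84Da (from 7365850 to 7366262, plus strand) overlaps it by 269 bases and had 101425 sense reads in control 1 and 85249 in control 2. The counts differ by 5 and 12 reads. In the count without regard to strand Mst84Da had 0.443 CPM in control 1 and 0.264 CPM in control 2, against 1332 and 1158 CPM in the sense count.

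Other pairs followed the same form. The cell death gene grim had 1378 antisense reads in control 1 and 1113 in control 2, equal in both to the sense reads of asRNA:CR45974, which lies within it. Its own sense reads numbered 7 and 5. Jhbp4 overlaps the end of the abundant Jhbp5 by 86 bases and had 23562 antisense reads in control 1 and 19663 in control 2, with 86 and 73 sense reads. The gene asRNA:CR45162 overlaps CG9389 by 454 bases and had 51361 and 49161 antisense reads, with 31 and 26 sense reads. CG31808 overlaps the germline cytochrome c gene Cyt-c-d by 305 bases and had 27081 and 27119 antisense reads, with 383 and 351 sense reads. In these cases the reads antisense to the lower gene lie on the strand of a partner with many sense reads.

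Of the 800 genes, 136 had no annotated overlap with an exon on the opposite strand. Among those with at least 1000 stranded reads in each control, the share was highest in lncRNA:CR44967 (3R from 13085478 to 13085976, plus strand), with 1767 antisense and 13 sense reads in control 1 and 1774 and 15 in control 2. The yolk protein gene Yp3 (X from 13759546 to 13761547, plus strand) had 1507 antisense and 82 sense reads in control 1, a share of 94.8% (95% Clopper-Pearson interval 93.6 to 95.9), and 1576 and 93 reads in control 2, a share of 94.4% (93.2 to 95.5). The nearest gene on the opposite strand, CG32625, lies 2720 bases away and had 249 sense reads in control 1 and 225 in control 2. CG6665 lies 16 bases from CG9010, which had 54079 and 53915 sense reads, and had 2297 antisense and 689 sense reads in control 1 and 1488 and 687 in control 2. Also in this group were Dscam3, loh, Sin1, CG34159, tadr, CG42404 and RluA-1, with shares between 50.5% and 84.0%. Of 159 list genes with at least 100 stranded reads only Yp3 and cort had mostly antisense reads, against 6.92% of all such genes. A share under 1% was found for 119 of the 159. For all genes that share was not computed at this minimum. At 1000 stranded reads, 65.7% of all genes in control 1 and 66.6% in control 2 were under 1%.

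Counting without regard to strand left most genes unchanged and removed some. Of the 11297 genes at or above 1 CPM in the sense count, 9722 (86.1%) had an unstranded CPM within 10% of it. It was at most 0.5 times the sense CPM for 484 genes and at least 2 times for 55. In the lists the first kind comprised Mst84Da, d-cup, Acp95EF and Lsp2, and the second Cp18 and Yp3. Acp95EF had no read in either control without regard to strand, against 24.3 and 33.9 CPM in the sense count.

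**Figure D5:**
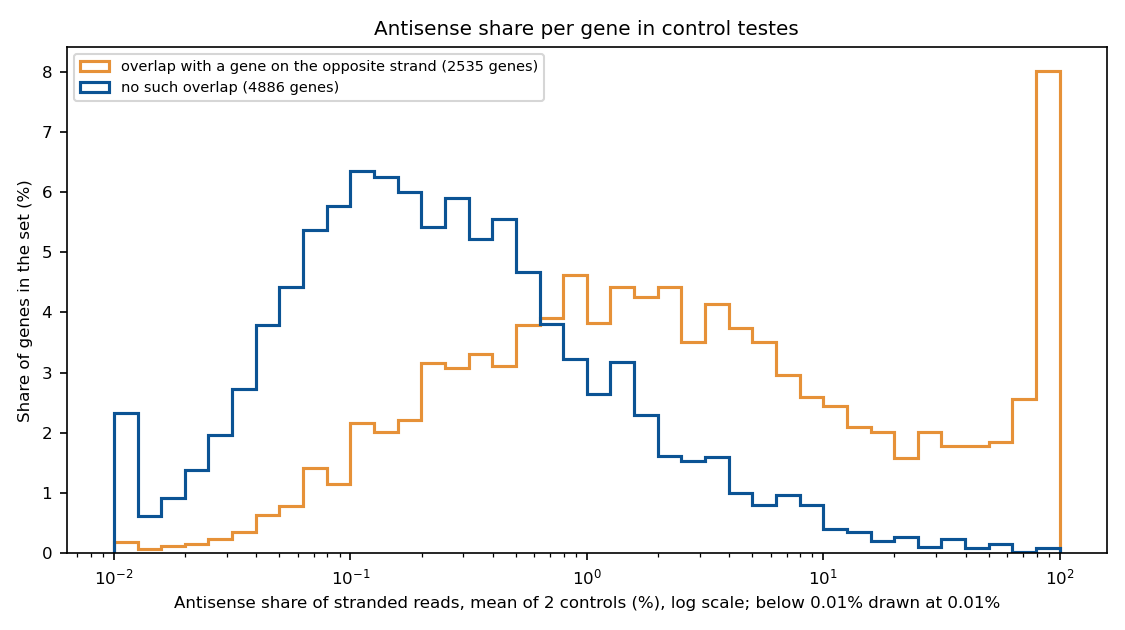
Distribution over genes of the antisense share (mean of the 2 controls, log axis) for genes with at least 1000 stranded reads, with the orange line for 2535 genes that overlap a gene on the opposite strand and the blue line for 4886 that do not. The medians in control 1 are 2.20% with overlap and 0.210% without, and only the orange line has a peak close to 100%.

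Controls were set against the knockdown libraries in 5 measures of a whole library, which asks where the baseline stood apart. With 2 libraries against 3, an exact two-sided permutation test cannot give a p under 0.2, so no measure could pass 0.05. The antisense share averaged 3.09% ± 0.0120 in control (SD, n = 2) and 3.44% ± 0.245 in knockdown libraries (SD, n = 3), without overlap (exact permutation p = 0.2, 0.5 after Benjamini-Hochberg adjustment over 5 measures). The single values in knockdown were 3.16% for Pcf11 and 3.52% and 3.63% for cbc. In genes without overlap on the opposite strand it was 0.544% and 0.553% in control, against 0.611% for Pcf11 and 0.918% and 0.994% for cbc.

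The 100 highest genes of each library took 24.7% and 22.9% of sense reads in the controls, against 22.6% for Pcf11 and 19.3% in both cbc libraries (mean difference 3.40 percentage points, exact permutation p = 0.2, adjusted 0.5). Without mitochondrial genes the values were 22.8% and 22.1% in control, against 22.2%, 17.4% and 17.0%, and the groups then overlapped. Thinned to 18954932 reads, 12173 and 12244 genes had at least 10 reads in the controls, against 11990 for Pcf11 and 13056 and 13097 for cbc, and the groups overlapped (exact permutation p = 0.6, adjusted 0.75). The shares of mitochondrial and of lncRNA reads also overlapped (exact permutation p = 1 and p = 0.6). The cbc libraries had 18954932 and 20510200 sense reads and titles in another style than the controls and the Pcf11 library, so depth, style and genotype cannot be told apart there. Within the style shared by the controls and Pcf11 library 2, the knockdown side is 1 library.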

How the data were processed

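Polyadenylated RNA of whole testes was read with a strand-preserving kit, per the labels' protocols. Per the submitters' processing notes, the tools were STAR, Trim Galore, deepTools and SAMtools, and the named builds were BDGP6 and dm6. Tool versions, settings and the annotation's release are not given in the sources used here. The deposited values are raw read counts for each gene, in 3 columns (unstranded, antisense and sense), in the layout of STAR's gene counter, which counts uniquely mapped reads. The first 4 rows name no gene and were dropped. In the controls, reads of no gene made up 1.36% and 1.35% of uniquely mapped reads, reads of several genes 4.53% and 4.55%, and unmapped reads 23.5% and 28.0% of all reads.

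Symbols, exons and coordinates came from a BDGP6 annotation that held 17710 of 17807 identifiers. The 97 others took 0.577% and 0.564% of reads. CPM and per-length levels were computed in Python 3.11.15, with scaling factors of edgeR 4.0.16 and DESeq2 1.42.0 (R 4.3.3) as alternatives. Levels of genes were described without a test, because the controls are 1 group of 2 libraries. The scripts were tested on simulated data. Library measures were compared by an exact two-sided permutation test. Intervals are 95% and, like the floor of 3 reads, cover counting error only. Alternatives were another filter, scaling, unit, column or read minimum, genes without overlap, and each control left out.

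The genes described and the lists were chosen with earlier results of these data known. Named genes were the 6 markers, the 20 highest by CPM and per length, the 10 highest noncoding genes, up to 4 members of each list by CPM and any at 0, the paralog pairs, the 10 genes with the highest antisense share with and without overlap, and those with the largest ratios between controls. Other genes named were chosen after their values were seen. The 20 lists held 196 names, of which 9 matched no symbol (nos, rye, ald, Mst35Ba, Mst35Bb, ryder, Peb, PebII and PebIII).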

Additional observations from a re-analysis of the deposited data

How the results depend on the processing

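The count of genes at or above 1 CPM ran from 11142 with the unstranded column to 11474 without control 1. With the cut itself moved, 9104 genes were at or above 5 CPM and 15141 had at least 1 read in both controls. All of these stayed within 1.5 times of the reported count. Other values moved with the choice of genes or scale. The 100 highest genes took 33.7% of the total when ranked per length. The antisense share was 0.549% in genes without overlap on the opposite strand and 1.69% without the 100 genes with most antisense reads. Genes with mostly antisense reads numbered 323 at a minimum of 1000 reads and 136 without overlap. Genes differing at least 2-fold between the controls numbered 93 at a mean of at least 1 CPM and 2 at 100 CPM, against 24 at 10 CPM. The X to autosome ratio was 0.929 over all genes with a read, 0.681 per length and 0.761 to 0.768 with a control left out. Scaling by edgeR or DESeq2 moved no list median beyond the spread between controls, and the unstranded column moved 5 of 20. The germline copy was higher in 18 of 23 pairs by CPM, a choice made after the data were seen, against 20 per length.

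In a replicate block of same-numbered control and cbc libraries the difference, control minus knockdown, was -0.487 percentage points in antisense share, 4.52 in the share of the 100 highest genes, -868 genes, -0.703 in mitochondrial and 0.119 in lncRNA share. Over 11993 genes, the difference between libraries 1 and 2 in control correlated with that in cbc knockdown at r = -0.128. This single value cannot settle whether same-numbered libraries shared a batch. Crossing the numbers gives the same means by arithmetic, so it tells nothing about pairing. Depth limits genes near the floor of 3 reads, and 2 libraries limit every statement on error. The cause of these changes was not tested.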
